A study of Mus musculus with 6 samples.

Results

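The 10 genes described here encode enzymes of glycolysis and the mitochondrial pyruvate carrier, and were taken by name from the deposited count table: Hk2, Pfkp, Pfkl, Aldoa, Gapdh, Pkm, Ldha, Ldhb, Mpc1 and Mpc2. All 10 were found among the 23565 genes of the table, and all 10 passed the filter on low counts that left 12439 genes to test. The counts were bulk RNA sequencing counts of sorted mouse crypt epithelium, in 6 libraries. In the Hopx-CreER group, with 3 libraries, tdTomato-positive cells had been taken from HopXCreER::Rosa26LSL-tdTomato mice. In the Lgr5-CreER group, also with 3, the sorted cells carried eGFP as well as tdTomato and came from Lgr5eGFP-IRES-CreER::Rosa26LSL-tdTomato mice. Mice of both groups carried a tamoxifen-activated Cre recombinase at a marker locus and the Rosa26 reporter, received 1 mg of tamoxifen, and gave small-intestinal crypts 16 hours later, with 3 mice per genotype in the series description. Strain, age and sex were not given in the sources used here.

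Glycolysis splits glucose into pyruvate in the cytosol. Hexokinases trap glucose as glucose 6-phosphate, phosphofructokinase commits it to the pathway, aldolase cleaves the hexose, glyceraldehyde-3-phosphate dehydrogenase oxidizes the triose, and pyruvate kinase makes pyruvate. Pyruvate is then reduced to lactate by lactate dehydrogenase, or enters mitochondria through a carrier built from MPC1 and MPC2. In the mouse crypt, Paneth cells are known as glycolytic neighbours of the Lgr5 stem cell, which relies more on mitochondrial respiration, and loss of the pyruvate carrier is known to expand the stem cell compartment.

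Library totals ran from 10839306 to 14570555 counts, and libraries are numbered by column order within each group. Hopx, the gene that names the Hopx-CreER line, was lower in Hopx-CreER than in Lgr5-CreER cells, against its label (54.3 ± 9.65 and 89.8 ± 3.94 CPM, counts scaled to library size, SD, n = 3; edgeR adjusted p 0.0131), and so was Lgr5 (41.4 ± 17.7 and 108 ± 3.93 CPM; edgeR adjusted p 0.0147). Epithelial genes were high in every library (8 genes summing to 12083 to 19437 CPM), Krt8 being the most abundant. Immune genes summed to at most 5.41 CPM, with Adgre1 at 0, and genes of mesenchyme and endothelium to at most 4.23 CPM, with Col1a1 and Cdh5 at 0. Erythroid genes reached at most 0.742 CPM, with Hba-a1 and Hba-a2 at 0. Hopx-CreER library 3 stood apart from libraries 1 and 2: the SD of its log2 differences from them, taken over 8165 genes averaging 10 CPM or more, was 0.587 and 0.562, against 0.325 between those 2 libraries. The column name of Hopx-CreER library 3 carries a tag, 4-5k, that no other column has. What the tag stands for is unknown, and its part in the spread of this library was not tested. A shared number stands in the column names of libraries 2 and 3 of the Lgr5-CreER group (SD 0.258). Labels do not say which mouse gave which library, so p-values here take the 6 libraries as independent and measure only the spread between them.

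Pfkp, Aldoa, Pkm, Ldha and Mpc2 were higher in Hopx-CreER cells, and none of the 10 genes was called lower. Hk2, Pfkl, Gapdh, Ldhb and Mpc1 did not pass. The test was the edgeR quasi-likelihood test on TMM-scaled counts (TMM is a library scaling factor), with p-values adjusted over all tested genes at a threshold of 0.05. It called 12.8% of all tested genes, 9.45% as higher and 3.30% as lower in Hopx-CreER cells, beside 5 of the 10 genes here. All 3 Hopx-CreER libraries lay above all 3 Lgr5-CreER libraries for 7 of the 10 genes and below them for 1 (Hk2), while 34.9% of all tested genes had groups that did not overlap (18.8% with Hopx-CreER above and 16.2% with Lgr5-CreER above). The median log2 fold change, positive where Hopx-CreER cells were higher, was 0.49 for the 10 genes and -0.033 for all tested genes. Genotype, sorting gate and any mix of cells differed together between the groups, so they cannot be told apart, and in bulk RNA fewer cells of a type cannot be told from less RNA per cell.

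**Figure D1:**
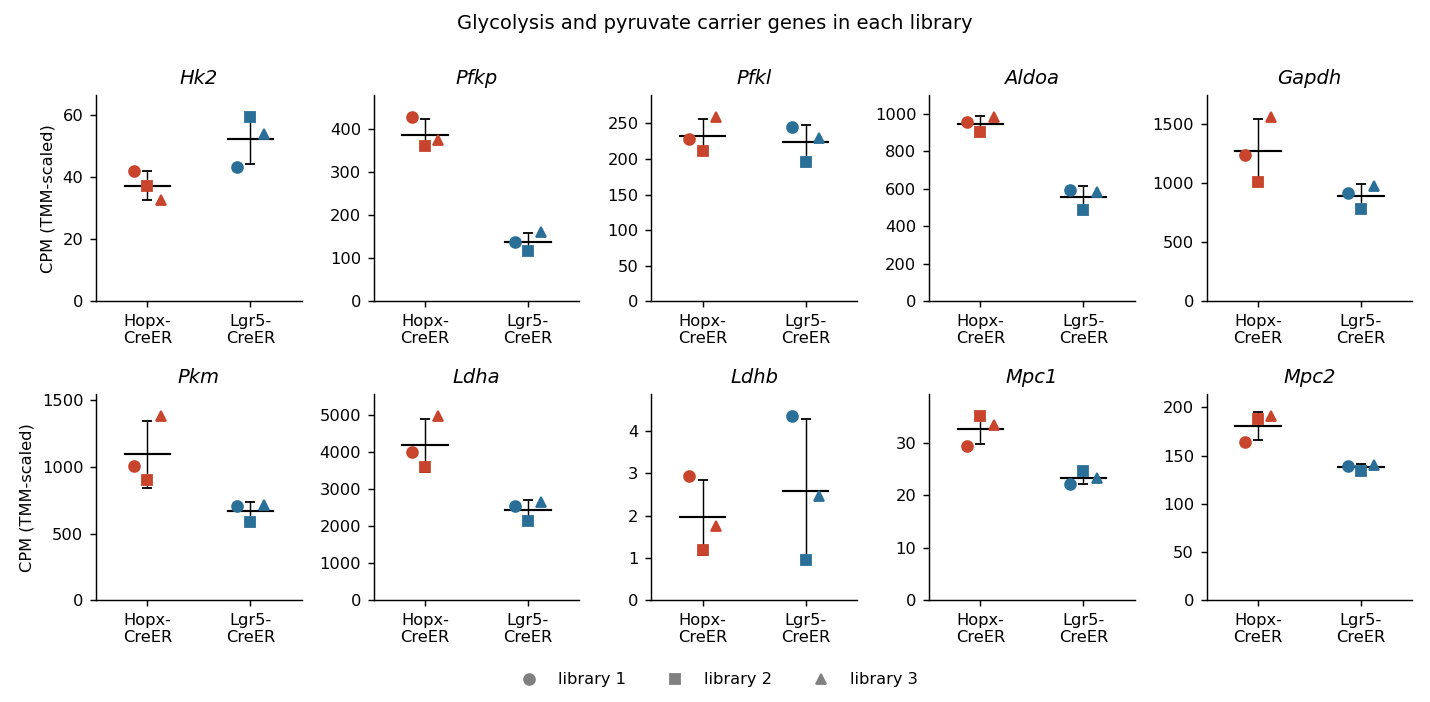
CPM of each of the 10 genes in the 3 Hopx-CreER (red) and 3 Lgr5-CreER (blue) libraries; the bar is the group mean, the error bar the SD, and the symbol the library number. The groups do not overlap except for Pfkl and Ldhb, and Hk2 is the gene whose Lgr5-CreER libraries lie above.

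The sequence before the annotated start was examined for all 10 genes. The sequences are RefSeq's, on GRCm38.p6, and each window is the 250 bases before a start, read 5′ to 3′ on the gene's strand. The cores searched, on both strands, were: ACGTG, the core of sites bound by hypoxia-inducible factors, and CACGTG, the E-box bound by Myc and related factors, which holds ACGTG on both strands. ACGTG was present in 16.6% and CACGTG in 6.02% of 32841 such windows, those of all genes in the RefSeq table. Of 15 windows of the 10 genes, 5 held ACGTG, and these belonged to Hk2, Aldoa, Pkm and Ldha. CACGTG was in 1 of the 15, a window of Ldha. The Aldoa windows with a match overlap and hold the same site, so that site is counted more than once. The Pkm window with a match has its start 859 bases from that of the GENCODE principal transcript, and the nearer Pkm window had no match. Ldha, which rose, Aldoa, which rose, and Hk2, which was not called and had the opposite sign, are shown with ACGTG on either strand in capitals. Pfkp, the gene with the largest fold change of the 10, is shown as a window with no match to ACGTG, though it holds GCGTG.
Ldha, chr7:46845554-46845803, plus strand: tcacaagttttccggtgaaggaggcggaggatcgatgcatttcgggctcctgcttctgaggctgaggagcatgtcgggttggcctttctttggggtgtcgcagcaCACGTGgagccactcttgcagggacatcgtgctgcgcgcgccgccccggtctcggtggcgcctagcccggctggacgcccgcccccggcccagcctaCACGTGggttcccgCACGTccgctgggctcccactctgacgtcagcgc
Aldoa, chr7:126799255-126799504, minus strand: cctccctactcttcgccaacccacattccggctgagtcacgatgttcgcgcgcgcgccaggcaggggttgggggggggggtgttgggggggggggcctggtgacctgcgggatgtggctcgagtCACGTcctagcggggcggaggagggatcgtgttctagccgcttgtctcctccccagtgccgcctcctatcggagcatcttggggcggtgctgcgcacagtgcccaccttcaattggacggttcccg
Hk2, chr6:82774455-82774704, minus strand: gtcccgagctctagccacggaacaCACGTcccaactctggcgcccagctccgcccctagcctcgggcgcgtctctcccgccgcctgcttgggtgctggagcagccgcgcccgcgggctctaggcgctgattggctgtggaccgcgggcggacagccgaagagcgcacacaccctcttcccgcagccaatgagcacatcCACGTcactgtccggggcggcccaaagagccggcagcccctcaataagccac
Pfkp, chr13:6648772-6649021, minus strand: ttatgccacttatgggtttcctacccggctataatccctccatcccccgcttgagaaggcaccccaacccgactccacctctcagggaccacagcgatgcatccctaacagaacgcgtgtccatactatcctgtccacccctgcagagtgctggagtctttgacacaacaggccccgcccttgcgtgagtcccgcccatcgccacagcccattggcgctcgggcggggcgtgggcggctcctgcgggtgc
The Ldha window held 3 separate sites, 2 of which were CACGTG, with matches beginning 145, 144, 48, 47 and 34 bases before the start. Its start lies 1327 bases from that of the GENCODE principal transcript, RefSeq gives Ldha another start whose window held no match, and counts per gene do not show which start was used. The Hk2 window held 2 sites, at 226 and 52 bases before the start, and the Aldoa window 1, at 126 bases. A match of letters is a description of the sequence and shows nothing about which factor binds there.

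At the first step, Hk2, a hexokinase found in proliferating cells, had lower values in Hopx-CreER than in Lgr5-CreER cells and did not pass the test. Hk2 (ENSMUSG00000000628.10; chromosome 6, 82725025 to 82774454, minus strand, GRCm38) stood at 42.0, 37.3 and 32.7 CPM in Hopx-CreER libraries 1, 2 and 3 and at 43.4, 59.4 and 54.1 CPM in Lgr5-CreER libraries 1, 2 and 3. All Hopx-CreER values were below all Lgr5-CreER values, although Hopx-CreER library 1 and Lgr5-CreER library 1 were separated by little. The log2 fold change was -0.49 ± 0.17 (SE; edgeR adjusted p 0.0969, unadjusted p 0.0182), and it stayed negative in each of the 17 alternative fits.

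Hkdc1 and Hk1, which also belong to the hexokinase family, were higher in Hopx-CreER cells. Hkdc1, a hexokinase-domain protein, rose by 1.71 ± 0.29 on the log2 scale (SE; edgeR adjusted p 0.0057) and averaged 221 ± 72.0 CPM in Hopx-CreER and 67.8 ± 23.6 CPM in Lgr5-CreER libraries (SD, n = 3). Hk1, the hexokinase of most tissues, rose by 1.77 ± 0.33 (edgeR adjusted p 0.00919). Hk3 had 1 count in all libraries together. Compared per kb of principal transcript, Hkdc1 was above Hk1, Hk2 and Hk3 in every library. Hk2 made up 9.69 ± 3.33% (SD, n = 3) of the summed CPM per kb of these 4 genes in Hopx-CreER cells and 32.3 ± 7.08% in Lgr5-CreER cells. The share of Hk2 was 9.27%, 13.2% and 6.59% in the Hopx-CreER libraries against 31.2%, 39.8% and 25.8% in the Lgr5-CreER libraries, so that the groups did not overlap. This share was computed after the values were seen and was not tested.

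The phosphofructokinase isozymes also differed from each other in their fold changes. Pfkp, the platelet-type isozyme (ENSMUSG00000021196.13; chromosome 13, 6579768 to 6648777, minus strand), stood at 427, 359 and 374 CPM in Hopx-CreER libraries 1 to 3, against 137, 117 and 160 CPM in Lgr5-CreER libraries 1 to 3. Every Hopx-CreER library lay far above every Lgr5-CreER library. Pfkp rose 2.81-fold, a log2 fold change of 1.49 ± 0.14 (SE; edgeR adjusted p 0.000535), and kept its call in all 17 alternative fits, with log2 fold changes of 1.38 to 1.61 and adjusted p of at most 0.00425.

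Pfkl, the liver-type isozyme (ENSMUSG00000020277.9; chromosome 10, 77986947 to 78010083, minus strand), stood at 228, 211 and 259 CPM in Hopx-CreER libraries 1 to 3, against 245, 196 and 230 CPM in Lgr5-CreER libraries 1 to 3. The groups overlapped, and the log2 fold change was 0.057 ± 0.12 (SE; edgeR adjusted p 0.799), with a sign that turned with library totals alone as scaling (-0.058). Pfkm, the muscle-type isozyme, had a log2 fold change of -0.14 ± 0.18 (edgeR adjusted p 0.637) at 18.9 and 20.9 CPM in the Hopx-CreER and Lgr5-CreER means.

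The order of the isozymes was therefore turned between the groups. The ratio of Pfkp to Pfkl counts within a library, which does not depend on scaling between libraries, was 1.87, 1.70 and 1.44 in the Hopx-CreER libraries and 0.558, 0.596 and 0.695 in the Lgr5-CreER libraries. All Hopx-CreER ratios were above 1 and all Lgr5-CreER ratios below 1. Mean log2 ratios were 0.73 ± 0.19 and -0.70 ± 0.16 (SD, n = 3), a difference of 1.44 (exact two-sided permutation test p = 0.1, the smallest that 3 against 3 allows). Per kb, Pfkp made up 57.5 ± 2.98% (SD, n = 3) of phosphofructokinase CPM per kb in Hopx-CreER cells and 33.0 ± 2.49% in Lgr5-CreER cells, and Pfkl 38.5 ± 3.09% and 59.7 ± 2.34%.

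**Figure D2:**
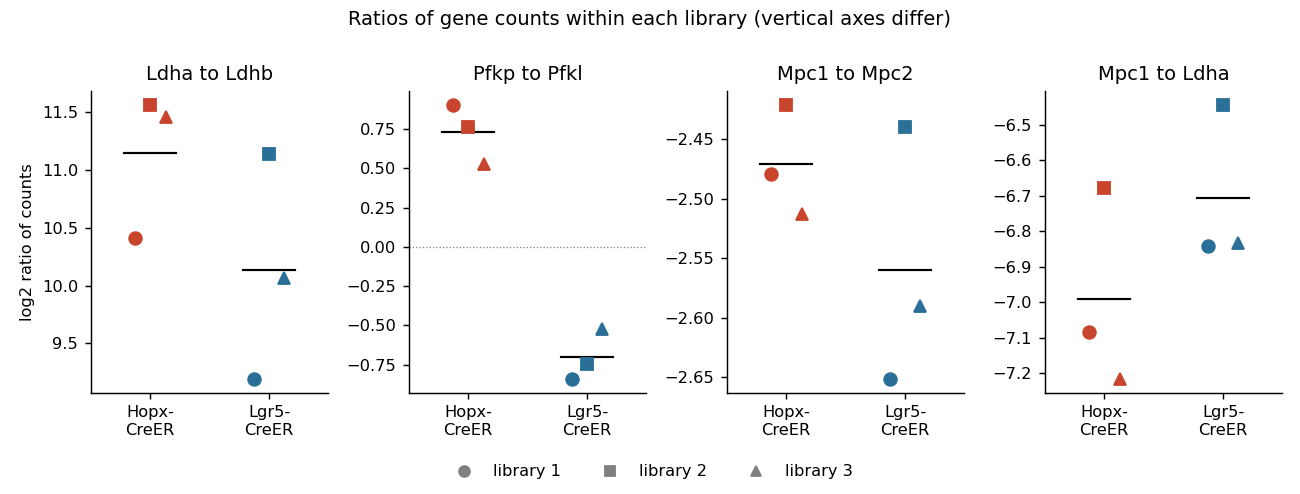
log2 ratio of the counts of 2 genes within each library, by group, with the group mean as a bar and the symbol as library number; vertical axes differ. Pfkp to Pfkl is the ratio whose groups do not overlap, at 0.53 to 0.91 in Hopx-CreER and -0.84 to -0.52 in Lgr5-CreER libraries.

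Aldoa, the main aldolase of glycolysis (ENSMUSG00000030695.14; chromosome 7, 126795234 to 126800751, minus strand), stood at 956, 903 and 981 CPM in Hopx-CreER libraries 1 to 3, against 592, 489 and 583 CPM in Lgr5-CreER libraries 1 to 3. The groups were far apart and the Hopx-CreER libraries close together. Aldoa rose 1.71-fold, a log2 fold change of 0.77 ± 0.11 (SE; edgeR adjusted p 0.00302), and was called in all 17 alternative fits.

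Gapdh, glyceraldehyde-3-phosphate dehydrogenase (ENSMUSG00000057666.18; chromosome 6, 125161715 to 125166467, minus strand), stood at 1238, 1012 and 1557 CPM in Hopx-CreER libraries 1 to 3, against 919, 782 and 977 CPM in Lgr5-CreER libraries 1 to 3. The groups did not overlap, but Hopx-CreER library 2 lay close to Lgr5-CreER library 3. The log2 fold change was 0.51 ± 0.16 (SE; edgeR adjusted p 0.0756), and Gapdh passed without Hopx-CreER library 2 (log2 fold change 0.65, adjusted p 0.0352). Without Hopx-CreER library 3 it was 0.32 and with offsets for GC content 0.31, both more than 1.5 times smaller. Gapdh has many processed copies: 140 genes of the table matched its transcript at 90% identity or more over at least 300 bases. Their counts came to 3.49% of those of Gapdh, and they include Peli2, a protein-coding gene with 528 counts. How reads shared with the copies were assigned is not given, so the size of the uncertainty in the Gapdh count is not known.

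Pkm, whose splice forms M1 and M2 are summed in a count per gene (ENSMUSG00000032294.16; chromosome 9, 59656368 to 59679375, plus strand), stood at 1004, 904 and 1380.0 CPM in Hopx-CreER libraries 1 to 3, against 705, 589 and 714 CPM in Lgr5-CreER libraries 1 to 3. Each Hopx-CreER library was above each Lgr5-CreER library, and Hopx-CreER library 3 was the highest. Pkm rose 1.64-fold, a log2 fold change of 0.71 ± 0.17 (SE; edgeR adjusted p 0.0223). Its call was lost without Lgr5-CreER library 1, 2 or 3 (adjusted p 0.061, 0.101 and 0.0657) and when Lgr5-CreER libraries 2 and 3 were summed (adjusted p 0.0783). Pklr, the liver and red cell pyruvate kinase, rose by 1.09 ± 0.16 (edgeR adjusted p 0.00366) but made up 4.53% and 3.48% of pyruvate kinase CPM per kb in the Hopx-CreER and Lgr5-CreER means.

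Ldha was the most abundant of the 10 genes and Ldhb the least. Ldha, the lactate dehydrogenase subunit that favours lactate formation (ENSMUSG00000063229.15; chromosome 7, 46841475 to 46855627, plus strand), stood at 3993, 3590.2 and 4966 CPM in Hopx-CreER libraries 1 to 3, against 2542, 2149 and 2651 CPM in Lgr5-CreER libraries 1 to 3. The groups did not overlap, and Ldha made up 0.348% to 0.468% of a Hopx-CreER library and 0.230% to 0.272% of an Lgr5-CreER library. It rose 1.71-fold, a log2 fold change of 0.77 ± 0.15 (SE; edgeR adjusted p 0.00976). The call was lost without Lgr5-CreER library 2, at a log2 fold change of 0.68 and an adjusted p of 0.0516, and in no other alternative at the same threshold.

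Ldhb, the heart-type subunit (ENSMUSG00000030246.11; chromosome 6, 142490249 to 142507957, minus strand), had 39, 14 and 19 counts in the Hopx-CreER libraries and 65, 11 and 36 counts in the Lgr5-CreER libraries, or 0.950 to 4.35 CPM. The groups overlapped across most of their range. The log2 fold change was -0.41 ± 0.57 (SE; edgeR adjusted p 0.678) and turned to 0.18 without Lgr5-CreER library 1, the library with the most Ldhb. Per kb, Ldhb made up 0.0446% to 0.231% of the sum of Ldha and Ldhb in any library. The log2 ratio of Ldha to Ldhb averaged 11.15 ± 0.64 in Hopx-CreER and 10.13 ± 0.98 in Lgr5-CreER libraries (SD, n = 3; difference 1.01, exact two-sided permutation test p = 0.2), and its groups overlapped.

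The carrier subunits Mpc1 and Mpc2 form a heterodimer in the inner mitochondrial membrane. Mpc2 (ENSMUSG00000026568.6; chromosome 1, 165460637 to 165481214, plus strand) stood at 164, 188 and 191 CPM in Hopx-CreER libraries 1 to 3, against 139, 134 and 140.1 CPM in Lgr5-CreER libraries 1 to 3. The Lgr5-CreER values were nearly level and all below the Hopx-CreER values. Mpc2 rose 1.31-fold, a log2 fold change of 0.39 ± 0.11 (SE; edgeR adjusted p 0.0393). This was the least stable of the 5 calls, kept in 7 of 17 alternative fits and in 1 of the 6 that left out a library (that without Hopx-CreER library 1).

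Mpc1 (ENSMUSG00000023861.17; chromosome 17, 8282904 to 8297661, plus strand) stood at 29.5, 35.1 and 33.4 CPM in Hopx-CreER libraries 1 to 3, against 22.2, 24.7 and 23.3 CPM in Lgr5-CreER libraries 1 to 3. The groups did not overlap, and the log2 fold change was 0.48 ± 0.16 (SE; edgeR adjusted p 0.0851). A processed copy, Mpc1-ps, matches Mpc1 at 99.7% identity over 330 bases and held 738 counts over all libraries beside 2121 of Mpc1, so the split between them is uncertain. With Mpc1-ps added to Mpc1, the log2 fold change was 0.54 and the adjusted p 0.045, past the threshold.

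The log2 fold changes of the subunits lay close together. The log2 ratio of Mpc1 to Mpc2 averaged -2.47 ± 0.047 in Hopx-CreER and -2.56 ± 0.11 in Lgr5-CreER libraries (SD, n = 3; difference 0.089, exact two-sided permutation test p = 0.3). The log2 ratio of Mpc1 to Ldha, which sets pyruvate import beside lactate formation at the level of RNA, averaged -6.99 ± 0.28 and -6.71 ± 0.23 (difference -0.29, exact two-sided permutation test p = 0.3), and its groups overlapped. With 4 ratios compared and 0.1 the smallest p the design allows, no ratio could pass a threshold of 0.05, and none would after adjustment.

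**Figure D3:**
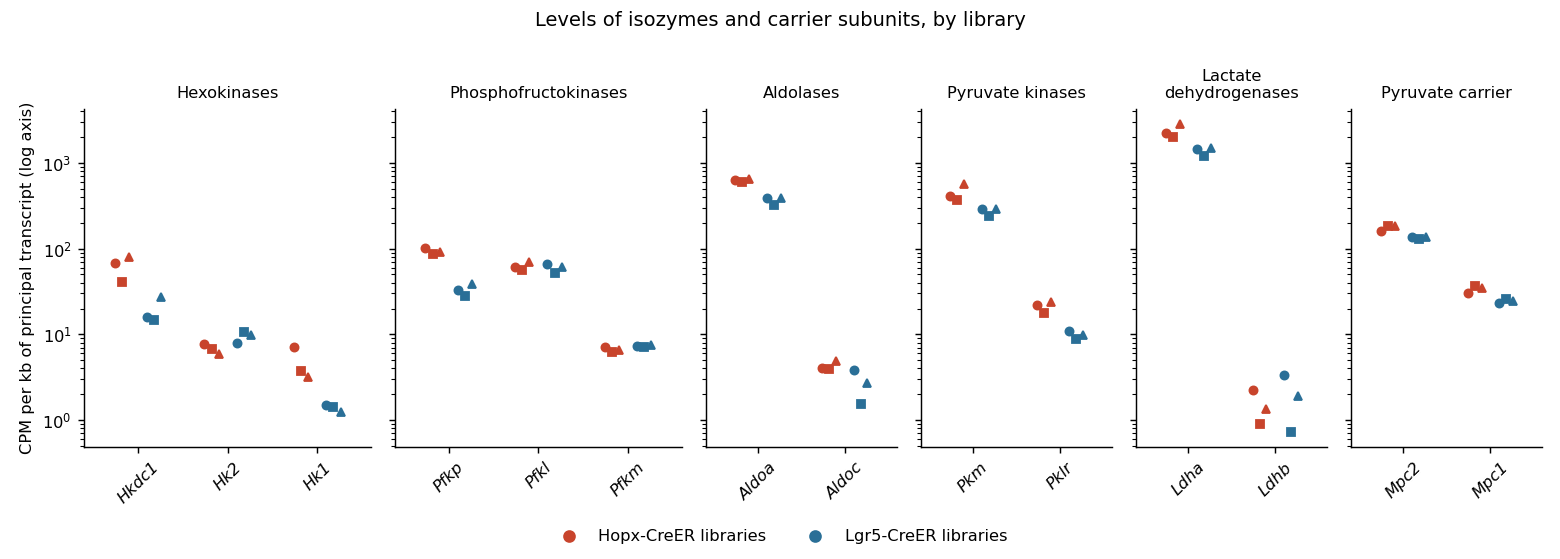
CPM per kb of principal transcript (log axis) for hexokinases, phosphofructokinases, aldolases, pyruvate kinases, lactate dehydrogenases and carrier subunits named below each panel, in Hopx-CreER (red) and Lgr5-CreER (blue) libraries. Pfkp lies above Pfkl in red and below it in blue, and Ldhb lies far below Ldha in both; Hk3, with 1 count in all, is not drawn.

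Per kb of principal transcript, the order of levels in Hopx-CreER cells was Ldha (2369 ± 401, SD, n = 3), Gapdh (894 ± 193), Aldoa (626 ± 26.3), Pkm (451 ± 103), Mpc2 (177 ± 14.2), Pfkp (93.3 ± 8.63), Pfkl (62.4 ± 6.51), Mpc1 (34.1 ± 3.02), Hk2 (6.77 ± 0.851) and Ldhb (1.504 ± 0.685). The order in Lgr5-CreER cells was the same except that Pfkl (59.95 ± 6.68) stood above Pfkp (33.2 ± 5.15). Neighbours in either order did not overlap between libraries of a group. The level per kb of Ldha was thus above that of every enzyme upstream of it among the 10, and the lowest levels were those of Hk2 and Ldhb.

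Within the groups, the same libraries tended to be high or low for most of the 10 genes. Hopx-CreER library 3 was the highest of its group for 6 genes (Pfkl, Aldoa, Gapdh, Pkm, Ldha and Mpc2) and library 2 the lowest for 7. Lgr5-CreER library 2 was the lowest of its group for 8 genes, all except Hk2 and Mpc1, for which it was the highest. Hk2 ran the other way in Hopx-CreER cells too, where library 3 was its lowest.

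Markers of differentiated cells and of stem cells moved with the group. The 8 Paneth markers summed to 14835 to 32234 CPM in Hopx-CreER libraries, highest in library 3, and to 1644 to 3228 CPM in Lgr5-CreER libraries. Goblet markers summed to 7029 to 10610.3 against 2039 to 2685 CPM, enteroendocrine markers to 2905 to 6192 against 161 to 268 CPM, tuft markers to 170 to 638 against 75.2 to 108 CPM, and enterocyte markers to 1259 to 2776 against 362 to 514 CPM. Of these lists, 8 of 8 Paneth, 8 of 8 goblet, 9 of 9 enteroendocrine, 6 of 8 tuft and 7 of 8 enterocyte genes were called higher in Hopx-CreER cells, and none of these marker genes was at 0 in all libraries. Lgr5 stem cell markers summed to 2778 to 4611 CPM in Hopx-CreER libraries and to 9639 to 10143 CPM in Lgr5-CreER libraries, with 8 of 8 called lower, and proliferation markers to 1681 to 1768.1 against 2060 to 2189 CPM, with 2 of 8 called lower (Mcm2 and Mcm6) and 0 higher. The groups of Cdk1 and Rrm2 did not overlap in the other direction, with Hopx-CreER libraries above, and neither was called. The part of these cell types in the levels of the 10 genes was not tested. Without Hopx-CreER library 3, in which Paneth and enterocyte markers were highest, Pfkp, Aldoa, Pkm and Ldha were called. Their log2 fold changes were 1.5, 0.73, 0.50 and 0.62, and Mpc2 was not called (edgeR adjusted p 0.0545). Paneth markers summed to 15550 and 14835 CPM in Hopx-CreER libraries 1 and 2, above every Lgr5-CreER library. That fit therefore cannot separate the cell types from the levels of the 10 genes.

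**Figure D4:**
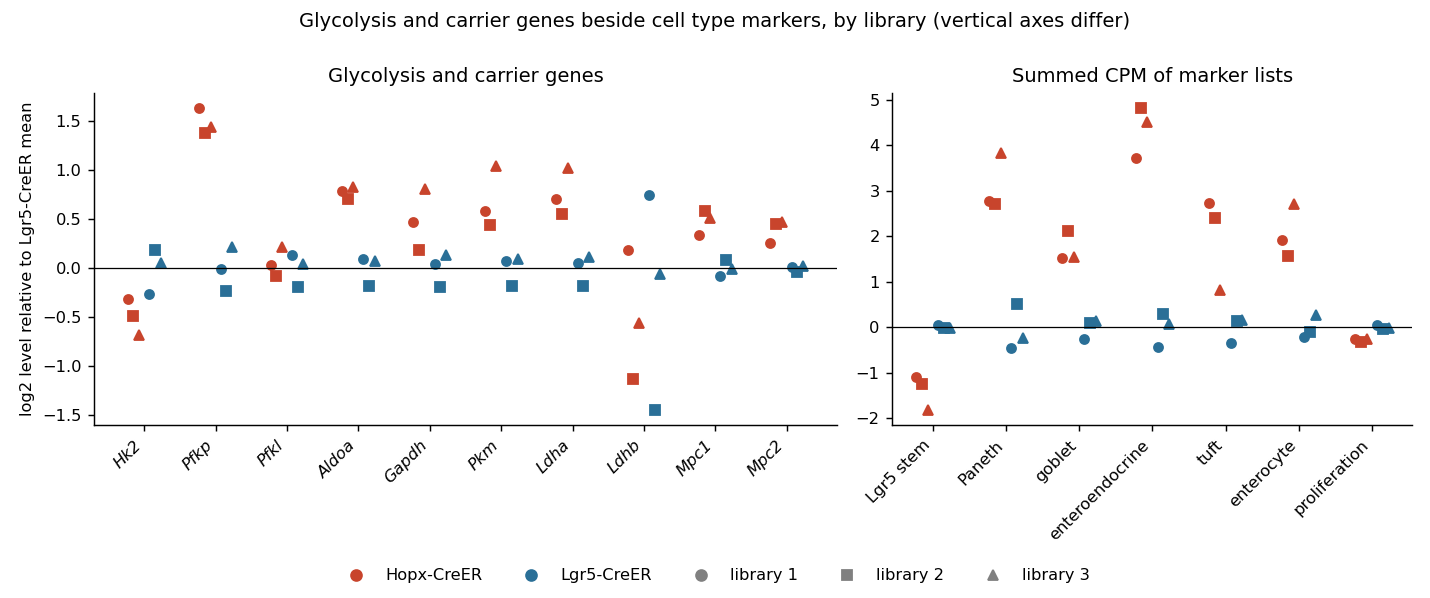
log2 level of each of the 10 genes (left) and of the summed CPM of each marker list (right) in each library, relative to the Lgr5-CreER mean; vertical axes differ, and symbols give the library number. Pkm and Ldha in Hopx-CreER library 3 reach 1.04 and 1.02, and Paneth markers in that library reach 3.83.

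The remaining steps of the pathway were read from lists of its other genes. Among all tested genes, 12.8% were called and the median log2 fold change was -0.033. Of 14 tested glycolytic enzymes outside the 10, 6 were higher, 0 lower and 8 not called, with a median log2 fold change of 0.50. Besides Hk1, Hkdc1 and Pklr, these included Eno1, the main enolase (log2 fold change 0.54 ± 0.15, SE; edgeR adjusted p 0.0444). The call of Eno1 was kept in 7 of the 17 alternative fits and lost when any 1 library other than Hopx-CreER library 2 was left out, while those of Hk1, Hkdc1 and Pklr were kept in all 17. Tpi1, triose phosphate isomerase, was the most abundant enzyme of the list that did not pass (1371 ± 148 against 1137 ± 120 CPM, SD, n = 3; edgeR adjusted p 0.203). Of the 4 tested hexose transporters, Slc2a5, which carries fructose, rose by 2.38 ± 0.44 and Slc2a2 by 4.20 ± 0.80 (edgeR adjusted p 0.00827 and 0.00965), while Slc5a1, the sodium-glucose transporter, did not pass (log2 fold change 0.71, edgeR adjusted p 0.083). Slc2a2 had 119, 62 and 460 counts in Hopx-CreER libraries 1, 2 and 3, so most of its counts came from library 3. Its call was lost without Lgr5-CreER library 2 or 3. Of 6 regulators, Pfkfb4, which sets the level of an activator of phosphofructokinase, rose by 1.203 ± 0.24 and Bpgm by 0.99 ± 0.17 (edgeR adjusted p 0.0107 and 0.0057), and Pfkfb3 did not pass (edgeR adjusted p 0.167). The call of Pfkfb4 was lost without Lgr5-CreER library 2.

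Downstream of pyruvate, the lists were those of lactate export and of entry into the citric acid cycle. None of 5 tested genes of lactate transport and other lactate dehydrogenases passed the edgeR adjusted threshold, and 1 had an unadjusted p under 0.05 (Slc16a3, a lactate exporter, log2 fold change 1.64 ± 0.62). DESeq2 and limma-voom called none of them, and Slc16a3 passed in the fit with no filter on low counts. Slc16a3 had 34, 32 and 133 counts in Hopx-CreER libraries 1, 2 and 3 and 25, 25 and 26 in the Lgr5-CreER libraries. Bsg, the chaperone of these transporters, was the most abundant (log2 fold change 0.24 ± 0.12, SE). Of 12 genes of pyruvate dehydrogenase and its regulators, with a median log2 fold change of -0.025, 2 were higher and 0 lower. This was 16.7% of the list, near the 12.8% called among all tested genes. The 2 were kinases that inhibit the complex, Pdk2 (log2 fold change 0.46 ± 0.11, edgeR adjusted p 0.0244) and Pdk4 (2.07 ± 0.58, 0.0459), while Pdhb, which had the highest CPM averaged over both groups among those that did not pass, had a log2 fold change of 0.41 ± 0.13 (edgeR adjusted p 0.0634). In Lgr5-CreER cells Pdha1 was above Pdhb (277 ± 7.81 and 222 ± 23.5 CPM, SD, n = 3). Of the 17 alternative fits, the call of Pdk2 was kept in 10 and that of Pdk4 in 11. Both were lost with library totals alone, without Hopx-CreER library 1, without Lgr5-CreER library 2 or 3 and with the last 2 summed, Pdk2 also without Lgr5-CreER library 1 and with offsets for GC content, and Pdk4 also without Hopx-CreER library 2.

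Of 14 genes that regulate glycolysis in the nucleus or respond to oxygen, 3 were higher, 1 was lower and 10 were not called. The share called among all tested genes was 12.8%. Myc, a transcription factor of proliferating cells, fell by 0.74 ± 0.16 on the log2 scale (from 306 ± 16.6 in Lgr5-CreER to 183 ± 40.5 CPM in Hopx-CreER cells, SD, n = 3; edgeR adjusted p 0.0167). Egln3, a prolyl hydroxylase induced by hypoxia, rose (edgeR adjusted p 0.00869) with 39, 22 and 98 counts in Hopx-CreER libraries and 1, 2 and 6 counts in Lgr5-CreER libraries. Epas1, which encodes HIF-2 alpha, rose by 1.66 ± 0.36 (edgeR adjusted p 0.0177), and Esrra, an orphan nuclear receptor of energy metabolism, by 0.66 ± 0.16 (edgeR adjusted p 0.0247). The calls of Myc and Esrra were lost without Lgr5-CreER library 2 or 3, that of Esrra also without Hopx-CreER library 1, and that of Epas1 without Hopx-CreER library 2 or Lgr5-CreER library 1 or 2. Hif1a had a log2 fold change of -0.16 ± 0.41 (edgeR adjusted p 0.829). Txnip, an inhibitor of glucose uptake, was the most abundant gene of the list and did not pass (edgeR adjusted p 0.852).

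**Figure D5:**
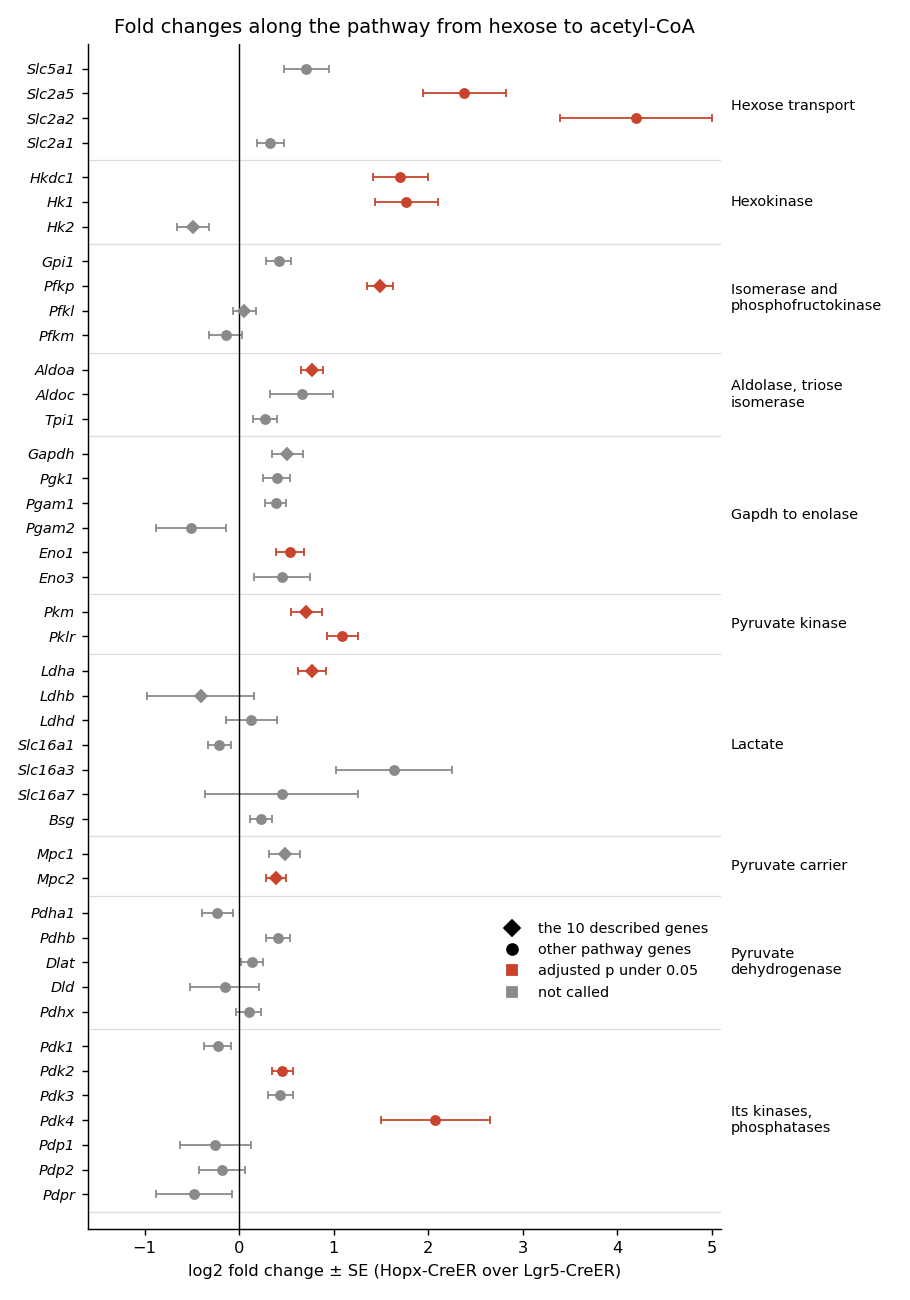
log2 fold change ± SE (Hopx-CreER over Lgr5-CreER, horizontal) of tested genes along the route from hexose to acetyl-CoA (vertical); diamonds are the 10 genes described, circles other genes, and red marks an adjusted p under 0.05. Hk2 at -0.49 stands left of 0 beside Hkdc1 at 1.71 and Hk1 at 1.77, and Pfkp at 1.49 stands apart from Pfkl at 0.057 and Pfkm at -0.14.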

How the data were processed

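RNA sequencing counts were measured in 6 libraries. Per the labels' protocols, sorted cells went into TRIzol LS, RNA was cleaned on MinElute columns, and libraries were made with SMART-Seq and Nextera XT, kits without strand marking. The deposited table holds raw counts from the authors, as whole numbers for each mouse Ensembl gene, not normalized. The tools and build named are edgeR, kallisto and GRCh38, with no role or order, per the submitters' processing notes. The identifiers are those of mouse although GRCh38 is human, and the sources used here do not give how counts were made. Symbols, positions and principal transcripts came from GENCODE M21 (GRCm38), which matched 23479 identifiers and left 86 unmatched.

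Columns state the sorting gate but not the labels' replicate number, so columns were mapped to groups only. The test was quasi-likelihood, from edgeR 4.0.16 (R 4.3.3), after TMM scaling and filterByExpr, with Benjamini-Hochberg adjustment over 12439 genes. Each SE was derived from the F statistic. CPM are counts over the TMM-scaled library size (1 count was worth 0.0669 to 0.0928 CPM), and CPM per kb divides by the length of the principal transcript. Amplified reads are not independent molecules. Ratios were tested by exact permutation. Near-identical genes were found with blastn (BLAST 2.17.0).

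Alternatives were RLE, upper quartile and no scaling factors, other filters, DESeq2 1.42.0, limma-voom (limma 3.58.1), a threshold of 0.01, each library left out, the columns that share a number summed, and TMM without marker genes and the 10 most abundant genes. Offsets for transcript GC content and the addition of near-identical genes were added after seeing the data. The genes and lists were chosen with earlier results of these data known. Named were the 10 genes, each called gene of the pathway lists except some that are counted but not reported here, and the most abundant gene of each list that was not called; Hk3, Pfkm, Slc16a3, Pdha1, Hif1a, Mcm2, Mcm6, Cdk1 and Rrm2 were named after their values were seen. In simulated data with 12439 genes of this comparison, 67, 67 and 66 genes were changed 1.5, 2 and 4-fold, up or down at random. The procedure called 10.9%, 40.0% and 86.2% of them, with 7.29% false among the calls, and called 0 genes when nothing was changed. Far fewer genes were changed than the 1586 called in the data, so these shares may differ there.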

Additional observations from a re-analysis of the deposited data

How the results depend on the processing

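Pfkp and Aldoa were called higher in all 17 alternatives at the threshold of 0.05, Ldha in 16, Pkm in 13 and Mpc2 in 7, and none of the 10 genes was called lower in any. Over the fits that left out 1 library, 2 to 5 of the 10 genes were called higher (2 without Lgr5-CreER library 2, 3 without Lgr5-CreER library 1 or 3), as were 9 to 24 genes of the other pathway lists, against 24 with all libraries, while 0 to 2 of those were lower against 1; the count over all genes was 723 to 1868 against 1586. These fits have fewer residual degrees of freedom. At a threshold of 0.01, 654 genes in all and 3 of the 10 were called. With Lgr5-CreER libraries 2 and 3 summed, 790 and 3 were. Lower pathway genes numbered 2 with GC offsets, with upper quartile factors and with library totals alone. The log2 fold change of Pfkl turned sign with library totals alone (-0.058), without Hopx-CreER library 3 (-0.040) or Lgr5-CreER library 2 (-0.033) and with GC offsets (-0.14), and ran from -0.040 to 0.12 with libraries left out; that of Ldhb ran from -0.80 to 0.18, turning without Lgr5-CreER library 1. The cause was not tested. Gapdh passed with no filter, with DESeq2 and without Hopx-CreER library 2, and Mpc1 with DESeq2, GC offsets and Mpc1-ps added. The share of all calls that were higher in Hopx-CreER cells was 74.1%, against 56.3% with library totals alone, 62.4% with GC offsets, 84.9% at a threshold of 0.01 and 83.4% with those libraries summed. Library totals alone moved the median log2 fold change of all genes from -0.033 to -0.15, and the log2 fold changes of Pfkp, Aldoa, Pkm, Ldha and Mpc2 stayed positive, Mpc2 no longer called. With libraries left out, the log2 ratio of Pfkp to Pfkl differed between groups by 1.35 to 1.54, Ldha to Ldhb by 0.54 to 1.52, Mpc1 to Mpc2 by 0.044 to 0.15 and Mpc1 to Ldha by -0.44 to -0.15. No paired analysis was possible because the columns of the groups share no replicate number. Ldhb had 11 to 65 counts per library.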

Other observations

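Genes downstream of pyruvate import and of side branches of glycolysis were also read from gene lists. Among all tested genes, 12.8% were called and the median log2 fold change was -0.033. Of 17 tested citric acid cycle genes, 5 were higher in Hopx-CreER cells, 0 lower and 12 not called, with a median log2 fold change of 0.33. The 5 were Mdh2 and Mdh1, the mitochondrial and cytosolic malate dehydrogenases (log2 fold changes 0.79 ± 0.15 and 0.50 ± 0.13, SE; edgeR adjusted p 0.00873 and 0.0391), Ogdh (0.48 ± 0.12, 0.0307), Suclg1 (0.49 ± 0.11, 0.0215) and Sdhb (0.50 ± 0.12, 0.0243). Mdh2 stood at 1910, 1624 and 2262 CPM in Hopx-CreER libraries 1 to 3, against 1058, 1035 and 1270 CPM in Lgr5-CreER libraries 1 to 3. Mdh2 was called in all 17 alternative fits, Suclg1 and Sdhb in 13, Ogdh in 11 and Mdh1 in 8. Suclg1, Sdhb and Ogdh lost their calls when any 1 of the Lgr5-CreER libraries was left out, Ogdh also without Hopx-CreER library 1, and Mdh1 when any 1 of the 6 libraries was left out. Sdha, the most abundant member that was not called, had a log2 fold change of 0.021 ± 0.10 (edgeR adjusted p 0.913).

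Of 6 gluconeogenesis genes, 3 were higher and 0 lower, beside 12.8% called among all tested genes. Fbp2, a fructose bisphosphatase, rose by 0.62 ± 0.10 on the log2 scale (SE; edgeR adjusted p 0.00547), with means of 616 ± 38.1 CPM in Hopx-CreER and 402 ± 24.2 CPM in Lgr5-CreER libraries (SD, n = 3), and Pck1, which makes phosphoenolpyruvate, by 2.36 ± 0.49 (edgeR adjusted p 0.0146). G6pc, which frees glucose, had 38, 12 and 144 counts in Hopx-CreER libraries and 1, 6 and 8 in Lgr5-CreER libraries (edgeR adjusted p 0.0339). Fbp2 was called in all 17 alternative fits, Pck1 in 14 and G6pc in 10. Pck1 lost its call without Lgr5-CreER library 2 or 3, and G6pc when Hopx-CreER library 3 or any 1 of the Lgr5-CreER libraries was left out. Pck2, the mitochondrial form and the most abundant member that was not called, had a log2 fold change of -0.39 ± 0.12 (edgeR adjusted p 0.0699), with all Lgr5-CreER libraries above. Of 7 pentose phosphate genes, Pgd was the single call (log2 fold change 0.43 ± 0.11, edgeR adjusted p 0.0326). This was 14.3% of the list, near the 12.8% called among all tested genes. Pgd lost its call when Hopx-CreER library 1 or any 1 of the Lgr5-CreER libraries was left out. Taldo1, the most abundant of the others, had a log2 fold change of 0.14 ± 0.13 (edgeR adjusted p 0.519).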
